A study of Mus musculus with 8 samples.

Results

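Genes of inhibitory and paired myeloid receptors were followed in colon during acute graft-versus-host disease, where grafted T cells attack the host: Lilrb4a, Lilr4b, Cd300a, Cd300lf, Cd300lb, Cd300ld, Clec12a, Sirpa and Cd47, which are 9 of the 19505 genes measured. They were taken from the deposited log2 table by gene symbol, and each had 1 probe set. They had been picked with the difference between treated and control mice already known, so every difference below is a description of these 9 genes and carries no test of its own. One group of 4 mice received hBD-2, human beta-defensin 2, an antimicrobial peptide of epithelia, by mouth at 1.2 mg/kg, and the other group of 4 mice received PBS by mouth, in both cases from day 0 to day 7. All 8 mice were WT BALB/c hosts that had been lethally irradiated and transplanted with C57BL/6 bone marrow and T cells, and all were labelled as having the disease. Whole colon was taken on day 7, with 1 array per mouse, so RNA of donor and host cells, and of all cell types, was measured together. In such bulk tissue, fewer cells of a type and less RNA per cell cannot be told apart. Values are log2 RMA values, differences are hBD-2 minus PBS on that scale, and errors are SD with n = 4 mice in each group unless given as standard errors.

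Inhibitory receptors of myeloid cells carry immunoreceptor tyrosine-based inhibitory motifs (ITIMs) in their tails. Once phosphorylated, these motifs recruit the phosphatases encoded by Ptpn6 (SHP-1), Ptpn11 (SHP-2) or Inpp5d (SHIP-1), which damp signals from activating receptors. Activating relatives lack the motifs and signal through adaptors such as Tyrobp (DAP12) or Fcer1g (the Fc receptor gamma chain). The 9 genes are not all inhibitory: Lilrb4a, Cd300a, Cd300lf, Clec12a and Sirpa encode ITIM receptors (5 genes), Lilr4b encodes a sister of Lilrb4a without the motifs, Cd300lb and Cd300ld couple to adaptors, and Cd47 encodes the ligand of Sirpa that most cells carry as a signal against phagocytosis. They are therefore called by their gene names here.

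The arrays hBD-2 1 and hBD-2 3 differed from all others in the scores of principal component 1 (34.6% of the variance), with 25.2 and 25.4 against -14.9 to -2.45 elsewhere. Their mean over 9 posterior colon genes was 1.14 and 0.88 relative to each gene's mean, against -0.36 to -0.35 in the remaining hBD-2 mice and -0.47 to -0.16 in PBS mice. These 2 arrays are called the outlying pair, and values without them are given where they differ by over 1.5 times. The 9 genes were not alike. Hoxb13 was at 9.06 and 9.32 in the pair, but PBS 3 and 4 (7.22 and 6.76) also lay above PBS 1 and 2 (4.73 and 5.14). Hoxd10 was lower in the pair, at 4.69 and 4.63 against 5.93 and 5.55 in hBD-2 2 and 4. Values without the pair are therefore not balanced for these genes. The epithelial marker Epcam averaged 12.08 ± 0.066 in hBD-2 mice and 12.05 ± 0.028 in PBS mice, a difference of 0.036 (SE 0.067), and 0.072 without the outlying pair.

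All 9 genes had a lower mean in hBD-2 mice, but the sizes differed between genes. Lilrb4a and Lilr4b differed most, Sirpa, Clec12a and Cd47 less, and in these 5 genes every hBD-2 mouse lay below every PBS mouse. The 4 Cd300 genes had small differences and overlapping groups. Over all genes, hBD-2 mice lay below PBS mice without overlap in 3.60% of genes. At an adjusted p under 0.05 in limma, 1 of the 9 genes was called, Lilr4b, where 0.0410% of all genes were, and because the 9 genes were picked on this contrast nothing is read from either count. The median of the 9 differences was -0.17, against 0.012 over all genes.

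**Figure D1:**
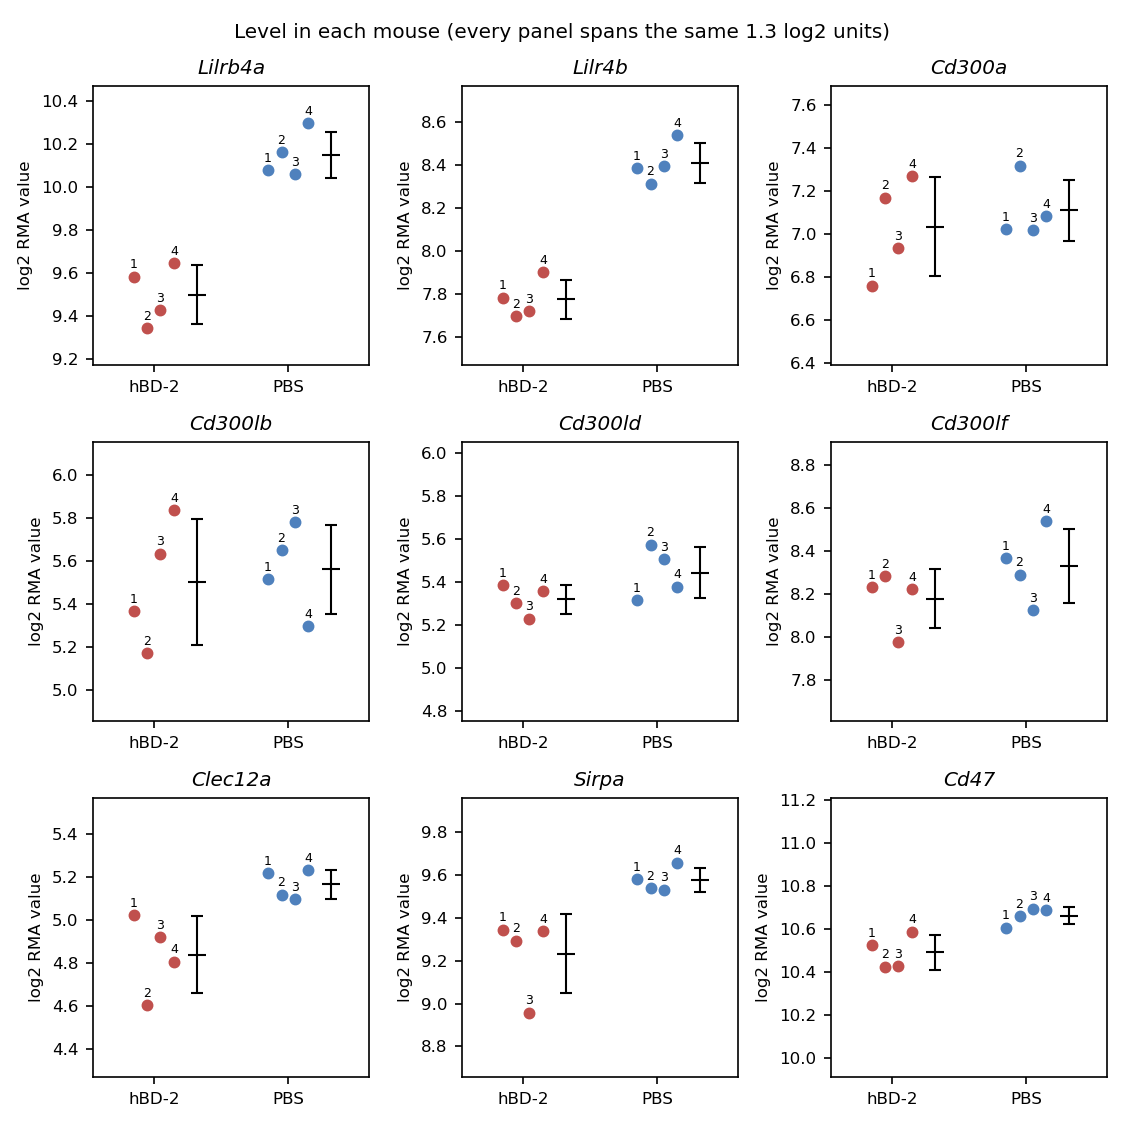
Log2 RMA value of each of the 9 genes in each mouse (numbered points), with the mean and SD of each group of 4 beside them; all panels span the same height. In Lilrb4a and Lilr4b the groups are separated by 0.42 and 0.41 log2 units, in Sirpa, Clec12a and Cd47 by 0.19, 0.074 and 0.019, and in the 4 Cd300 genes they overlap.

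Lilrb4a encodes gp49B, the mouse counterpart of human LILRB4 (ILT3), an ITIM receptor of macrophages, mast cells and other leukocytes. Its values were 9.58, 9.34, 9.43 and 9.64 in hBD-2 mice 1 to 4, against 10.08, 10.16, 10.06 and 10.30 in PBS mice 1 to 4. The highest hBD-2 mouse and the lowest PBS mouse were 0.42 apart, more than the whole range within either group (0.30 in hBD-2 and 0.24 in PBS mice). The mean was 9.50 ± 0.14 in hBD-2 mice and 10.15 ± 0.11 in PBS mice, a difference of -0.65 (SE 0.091, 95% interval -0.85 to -0.45), or 1.57-fold lower. With an adjusted p of 0.0535 in limma it lay just outside the threshold.

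Lilr4b encodes gp49A, the neighbouring receptor that lacks ITIMs. It stood at 7.78, 7.70, 7.72 and 7.90 in hBD-2 mice 1 to 4, against 8.39, 8.31, 8.40 and 8.54 in PBS mice 1 to 4. The groups did not overlap here either, and hBD-2 4 and PBS 4 were the highest mice of their groups in both genes. The difference was -0.63 (SE 0.079, 95% interval -0.81 to -0.46), or 1.55-fold lower, with an adjusted p of 0.0410 in limma. That call ended when PBS 1, 2, 3 or 4 or hBD-2 1, 2 or 3 was left out singly (adjusted p 0.0540 to 0.176 in limma), while the difference stayed between -0.67 and -0.59 over every array left out in turn.

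Lilr4b and Lilrb4a are adjacent on mouse chromosome 10 in RefSeq's annotation of GRCm38.p6, and their levels moved nearly in parallel. The log2 ratio of Lilrb4a to Lilr4b, centred over the 8 mice, stayed between -0.085 and 0.067 in hBD-2 mice and between -0.068 and 0.12 in PBS mice. Among all other genes, Lilrb4a had the profile nearest to that of Lilr4b over the 8 arrays. The root mean square distance was 0.064 log2 units. Genes outside the 9 were then ranked without gene models, meaning symbols of the Gm, LOC or Rik kind or starting with a digit. Their median distance was 0.36. Nearest among them were Bmp5 (0.078), a secreted signal of the BMP family, and Osmr (0.098), the oncostatin M receptor. Bcl2a1c (0.11), of the Bcl2 family, followed. Their differences between groups were -0.63, -0.56 and -0.50. The distances include the group difference on which Lilrb4a and Lilr4b were picked, so the nearness partly restates that choice. The 2 genes are close copies, the probe sequences were not used here, and how much signal either probe set takes from the other gene was not tested.

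The promoter of Lilr4b is shown because this gene had the only call among the 9, and that of Cd300ld because it alone held a searched motif; both are the 250 bases before the start of transcription in the RefSeq promoter table of GRCm38.p6, written 5′ to 3′ on the strand of the gene, with matches in capitals. Lilr4b lies at chr10:51480362-51480611 on the plus strand and Cd300ld at chr11:114989887-114990136 on the minus strand.
Lilr4b: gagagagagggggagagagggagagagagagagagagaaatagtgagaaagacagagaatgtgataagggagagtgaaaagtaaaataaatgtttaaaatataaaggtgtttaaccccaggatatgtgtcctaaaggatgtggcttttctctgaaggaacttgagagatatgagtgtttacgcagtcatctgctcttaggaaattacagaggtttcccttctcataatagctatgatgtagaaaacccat
Cd300ld: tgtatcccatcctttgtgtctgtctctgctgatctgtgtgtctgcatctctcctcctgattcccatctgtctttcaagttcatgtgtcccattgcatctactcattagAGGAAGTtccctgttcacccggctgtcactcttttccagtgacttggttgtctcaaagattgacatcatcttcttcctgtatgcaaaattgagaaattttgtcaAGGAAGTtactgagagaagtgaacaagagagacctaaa
The letters AGGAAGT, bound by the myeloid factor PU.1, and TGAGTCA, bound by AP-1, were searched on both strands in the 7 genes of the 9 that the table lists (all but Lilrb4a and Sirpa). Cd300ld held AGGAAGT at 142 and 38 bases before the start, and the other 6 genes held neither motif. Over all 32851 promoters of the table, 7.69% held AGGAAGT and 4.46% held TGAGTCA in this window.

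Sirpa encodes SIRP-alpha, an ITIM receptor of macrophages, dendritic cells and neurons that holds back phagocytosis when it binds Cd47. Its values were 9.34, 9.29, 8.96 and 9.34 in hBD-2 mice 1 to 4, against 9.58, 9.54, 9.53 and 9.65 in PBS mice 1 to 4. No hBD-2 mouse reached the PBS range, and hBD-2 3 lay well below its group. The difference was -0.34 (SE 0.096, 95% interval -0.56 to -0.13), and -0.25 without hBD-2 3.

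Cd47, the ligand of Sirpa, stood at 10.53, 10.43, 10.43 and 10.59 in hBD-2 mice 1 to 4, against 10.61, 10.66, 10.70 and 10.69 in PBS mice 1 to 4. The groups were 0.019 apart, which is less than the SD of either (0.079 in hBD-2 and 0.040 in PBS mice), and the difference was -0.17 (SE 0.070, 95% interval -0.33 to -0.016). The ratio of receptor to ligand, Sirpa minus Cd47 centred over the mice, was -0.086 ± 0.15 in hBD-2 mice and 0.086 ± 0.068 in PBS mice, and the groups overlapped. This ratio differed by -0.17 between groups, and by -0.10 without the outlying pair, of which hBD-2 3 was the lowest mouse at -0.30.

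Clec12a encodes MICL, a C-type lectin with an ITIM that recognises uric acid crystals and dead cells. Its values were 5.02, 4.60, 4.92 and 4.81 in hBD-2 mice 1 to 4, against 5.22, 5.12, 5.10 and 5.23 in PBS mice 1 to 4. The groups were 0.074 apart, with hBD-2 2 the lowest mouse. The difference was -0.33 (SE 0.096, 95% interval -0.54 to -0.11). It was -0.46 without the outlying pair. The array medians were 6.77 to 6.82, so this probe set, like those of Cd300lb and Cd300ld, lay in the lower part of the array's range.

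The Cd300 family is a cluster of paired receptors on mouse chromosome 11 that bind lipids of dying cells and membranes. Cd300a, an ITIM receptor for phosphatidylserine, stood at 6.76, 7.17, 6.94 and 7.27 in hBD-2 mice 1 to 4, against 7.02, 7.32, 7.02 and 7.08 in PBS mice 1 to 4. The hBD-2 mice spread over 0.51 and reached both above and below most PBS mice. The difference was -0.077 (SE 0.12, 95% interval -0.34 to 0.19), and it turned to 0.11 without the outlying pair, which were the 2 lowest mice. With 1 array left out at a time it ran from -0.16 without hBD-2 4 to 0.014 without hBD-2 1, with -0.12 without hBD-2 2, -0.044 without hBD-2 3 and -0.0078 without PBS 2.

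Cd300lf, an ITIM receptor of the same cluster and the entry receptor of murine norovirus, stood at 8.23, 8.28, 7.98 and 8.22 in hBD-2 mice 1 to 4, against 8.37, 8.29, 8.13 and 8.54 in PBS mice 1 to 4. PBS 3 lay below 3 of the hBD-2 mice. The difference was -0.15 (SE 0.10, 95% interval -0.38 to 0.080), and -0.077 without the outlying pair, -0.084 without hBD-2 3 alone and -0.082 without PBS 4.

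Cd300lb, which signals through Tyrobp, stood at 5.37, 5.17, 5.64 and 5.84 in hBD-2 mice 1 to 4, against 5.52, 5.65, 5.78 and 5.30 in PBS mice 1 to 4, and each group spanned most of the other. Its difference of -0.059 (SE 0.15, 95% interval -0.39 to 0.28) had no stable sign or size: it was -0.17 without hBD-2 4, -0.15 without PBS 4 and -0.10 without hBD-2 3, nearer 0 without PBS 2 (-0.029) or hBD-2 1 (-0.014), and above 0 without PBS 3 (0.015) or hBD-2 2 (0.052). Cd300ld, which signals through Fcer1g, stood at 5.39, 5.30, 5.23 and 5.36 in hBD-2 mice 1 to 4, against 5.32, 5.57, 5.51 and 5.38 in PBS mice 1 to 4, a difference of -0.13 (SE 0.080, 95% interval -0.30 to 0.053). The intervals of these 4 Cd300 genes leave room for decreases of up to 0.39 log2 units and increases of up to 0.28. Both of these bounds are those of Cd300lb, and the other intervals are narrower. The upper bounds of all 4 lie above 0, and their lower bounds lie above the differences of Lilrb4a and Lilr4b. Without PBS 2 the difference of Cd300ld was -0.082.

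**Figure D2:**
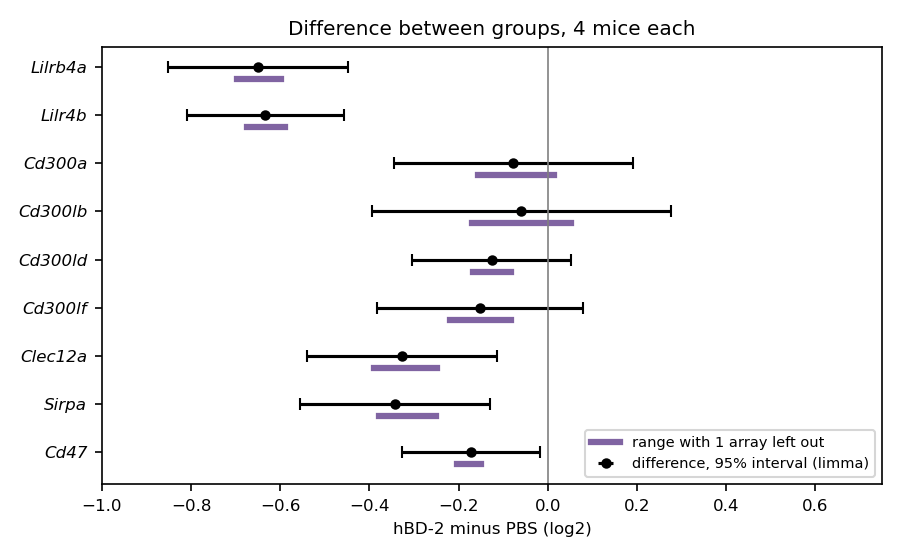
Difference hBD-2 minus PBS of each gene on the log2 scale (points) with its 95% interval from limma (black bars, 4 mice a group) and the range of the difference when each array was left out in turn (purple bars). Lilrb4a and Lilr4b lie at -0.65 and -0.63, and the purple bars cross 0 for Cd300a and Cd300lb.

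The mice were not ordered alike in all genes. PBS 4 was the highest mouse in 5 of the 9 genes and PBS 2 in 2, while hBD-2 2 was the lowest in 5 and hBD-2 3 in 3. Averaged over the 9 genes and relative to each gene's mean, the hBD-2 mice lay between -0.21 and -0.020 and the PBS mice between 0.11 and 0.17. Over the 4 Cd300 genes alone, hBD-2 mice lay between -0.12 and 0.11 and PBS mice between -0.0047 and 0.15, with overlap.

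Among genes outside the 9, again without gene models, 6 are given whose profiles over the 8 arrays were most like the mean of the 9. By root mean square distance after centring each gene, these were Faxc (0.039), Olfr444 (0.040), Cep57l1 (0.053), Sntb2 (0.055), Pip4k2a (0.057) and Gabarapl1 (0.062). The median of the ranked genes lay at 0.21. Pip4k2a encodes a phosphoinositide kinase and Gabarapl1 an autophagy protein. The differences of these 6 genes lay between -0.27 and -0.23, with adjusted p of 0.213 to 0.260 in limma. These distances, too, include the group difference on which the 9 genes were picked.

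Pan-leukocyte and macrophage markers also had lower means in hBD-2 mice. In hBD-2 mice the mean of 8 pan-leukocyte genes lay between -0.37 and -0.019, against 0.023 to 0.27 in PBS mice, relative to each gene's mean. The mean of 16 macrophage and monocyte genes lay between -0.27 and -0.12 in hBD-2 mice, against 0.11 to 0.30 in PBS mice. All 8 pan-leukocyte and 15 of 16 macrophage genes had a lower mean in hBD-2 mice, with median differences of -0.28 (-0.51 without the outlying pair) and -0.44. The leukocyte phosphatase receptor Ptprc (CD45) was at -0.27 (SE 0.14), or -0.13 without hBD-2 2 and -0.49 without the outlying pair. The lysosomal membrane protein of leukocytes Laptm5 was at -0.55 (SE 0.076, adjusted p = 0.0535 in limma). Csf1r, the receptor of macrophage growth factor, was at -0.42 (SE 0.14), the macrophage receptor Adgre1 (F4/80) at -0.57 (SE 0.21, and -0.25 without the outlying pair) and the mannose receptor Mrc1 at -0.72 (SE 0.11). The part of these markers in the differences of the 9 genes was not tested.

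Each gene was therefore also set against those marker means within each array. Relative to the pan-leukocyte mean, Lilrb4a lay between -0.31 and -0.016 in hBD-2 mice and between 0.045 and 0.23 in PBS mice, without overlap, a difference of -0.33 that stood at -0.23 without the outlying pair. Lilr4b likewise lay between -0.29 and -0.027 in hBD-2 mice and between 0.068 and 0.27 in PBS mice, a difference of -0.32, and -0.19 without those arrays. These were 2 of the 9 genes, and in the other 7 the groups overlapped on this scale. Over all genes, 0.0615% lay lower without overlap relative to the pan-leukocyte mean, and since the 9 genes were picked on the same mice nothing is read from the count. Sirpa and Clec12a stood at -0.025 and -0.010 relative to the pan-leukocyte mean, while the 4 Cd300 genes and Cd47 stood at 0.15 to 0.26. The pan-leukocyte mean itself differed by -0.32 (-0.42 without the outlying pair), and the median gene by 0.012. An unchanged gene therefore stands above 0 on this scale, and values above 0 show no rise. Leaving out the outlying pair moved Sirpa to 0.16, Clec12a to -0.038 and the Cd300 genes and Cd47 to between 0.27 and 0.53.

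Relative to the 16 macrophage and monocyte genes, Lilrb4a again lay lower without overlap, a difference of -0.28. It lay at -0.36 to -0.0050 in hBD-2 mice and 0.035 to 0.37 in PBS mice. The 16 genes themselves differed by -0.72 to 0.11, so some of them fell more than Lilrb4a (-0.65). As the 9 genes were picked on this contrast, nothing is read from the separation. Lilr4b had a difference of -0.27, but PBS 2 (-0.079) lay below hBD-2 4 (-0.016). Cd300ld lay higher without overlap, at 0.041 to 0.17 in hBD-2 mice and -0.28 to 0.018 in PBS mice, a difference of 0.24. Over all genes, 0.113% lay lower and 58.4% higher without overlap relative to the macrophage and monocyte mean, so the separation of Cd300ld was that of most genes. A ratio within an array shows unequal change of the gene and the markers and not which of them changed.

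**Figure D3:**
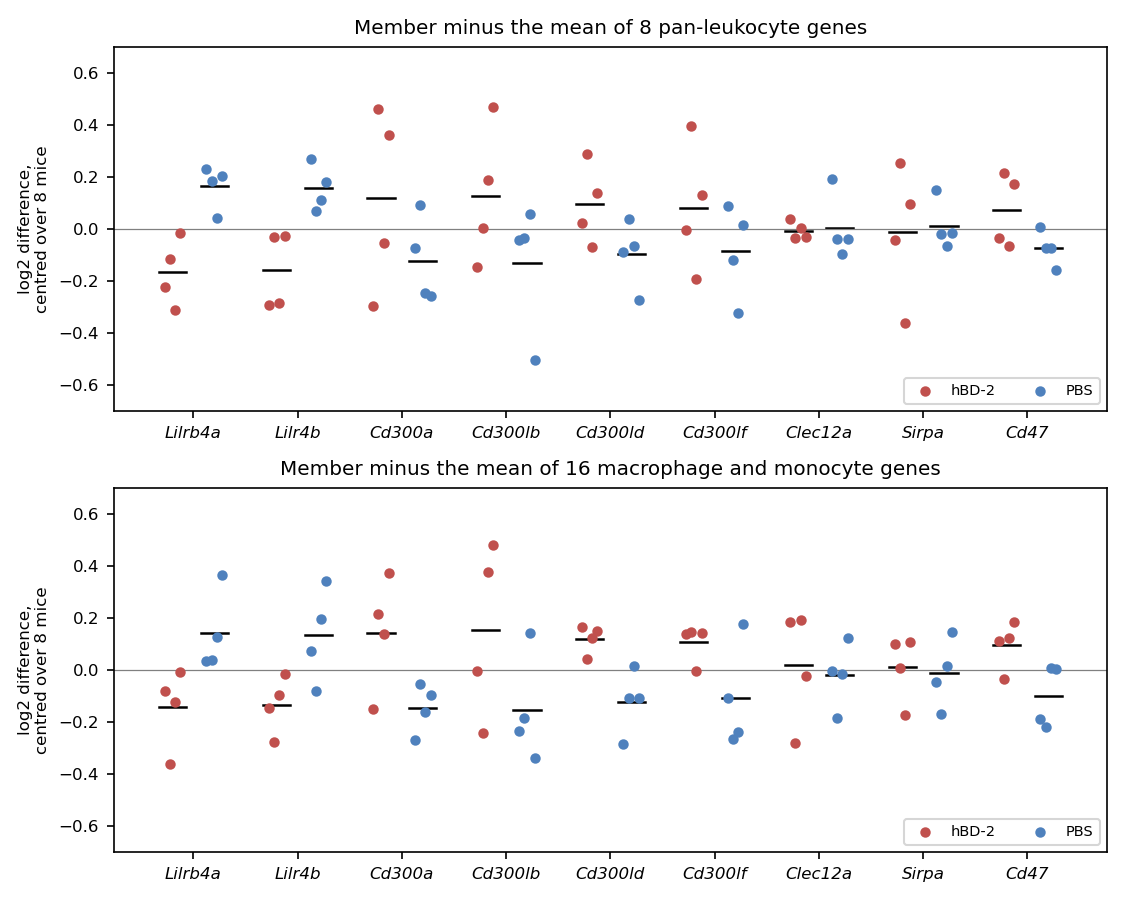
Log2 level of each gene minus the mean of 8 pan-leukocyte genes (top) or of 16 macrophage and monocyte genes (bottom) in the same array, centred over the 8 mice, with black lines for the group means. Against the pan-leukocyte mean, all hBD-2 mice lie below all PBS mice in Lilrb4a and Lilr4b, and against the macrophage mean in Lilrb4a; Cd300ld lies higher against the macrophage mean, as 58.4% of all genes do.

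Relatives and partners of these receptors, together called partners here, were counted over 9 lists with 76 measured genes. They were tested in the same limma fit over all 19505 genes. Among them were other inhibitory receptors (18 measured), C-type lectins (10), Lilr, Pir and Pilr genes (8) and Cd300 genes (3). The lists were chosen with earlier results of these data known, so nothing is read from their counts. One partner passed, Fcer1g, lower in hBD-2 mice, and 75 did not. At an unadjusted p under 0.05, 23 were lower and 1 higher in hBD-2 mice, where 5.98% and 5.85% of all genes were. The groups did not overlap in 15 of the 76, all lower in hBD-2 mice, beside 3.60% of all genes lower and 2.80% higher. The median difference over the 76 was -0.14, against 0.012 over all genes, and -0.086 against 0.020 without the outlying pair.

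Fcer1g, the adaptor of Cd300ld and of Fc receptors, fell to 7.39, 7.44, 7.25 and 7.59 in hBD-2 mice 1 to 4, against 8.21, 8.48, 8.10 and 8.12 in PBS mice 1 to 4. No hBD-2 mouse reached the PBS range, and the difference was -0.81 (SE 0.10, adjusted p = 0.0467 in limma). The call ended when any array but hBD-2 4 was left out (adjusted p 0.0558 to 0.176 in limma), with differences between -0.85 and -0.72. Tyrobp, the adaptor of Cd300lb, did not pass, at -0.29 (SE 0.097) with all arrays and -0.17 without the outlying pair. The other 2 adaptors measured, Hcst and Cd247, did not pass, and the list median was -0.20.

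None of the 10 genes of ITIM phosphatases and docking proteins passed in limma, and 3 were lower at an unadjusted p under 0.05. Ptpn6, which encodes SHP-1, had 7.34, 7.35, 7.53 and 7.41 in hBD-2 mice 1 to 4, against 7.63, 7.76, 7.76 and 7.63 in PBS mice 1 to 4. Inpp5d, which encodes SHIP-1, had 7.53, 7.31, 7.49 and 7.35 in hBD-2 mice 1 to 4, against 7.79, 7.75, 7.65 and 7.64 in PBS mice 1 to 4. Neither gene's groups overlapped, and the differences were -0.29 (SE 0.075) and -0.29 (SE 0.078). The list median was -0.10. Of 10 proximal kinases and effectors measured none passed and 3 were lower at an unadjusted p under 0.05, with a median of -0.14, which was -0.25 without the outlying pair, -0.084 without hBD-2 2 and -0.092 without PBS 4. The adaptor Pik3ap1 (BCAP), which brings in phosphoinositide 3-kinase, stood at -0.47 (SE 0.11) and the kinase subunit Pik3cg at -0.24 (SE 0.097).

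Other inhibitory receptors were the broadest list, with 18 measured, none past the threshold in limma, 7 lower and 1 higher at an unadjusted p under 0.05, and a median of -0.17, or -0.10 without PBS 2. Cd200r1, the myeloid receptor of CD200, stood at 5.95, 6.25, 6.24 and 6.11 in hBD-2 mice 1 to 4, against 6.59, 6.74, 6.69 and 6.88 in PBS mice 1 to 4. That is a separation without overlap and a difference of -0.59 (SE 0.094, adjusted p = 0.0634 in limma). Fcgr2b, the inhibitory Fc gamma receptor, stood at -0.72 (SE 0.15), also without overlap, and at -0.47 with the mean of the posterior colon genes as a covariate.

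Close relatives of the 9 genes were mixed. Of the other Lilr, Pir and Pilr genes and their kin, 8 of 15 listed were measured, none passed in limma, 4 were lower at an unadjusted p under 0.05, and the median was -0.22. Pilra, an ITIM receptor, stood at -0.40 (SE 0.12) and Pirb, an ITIM receptor related to human LILRB genes, at -0.28 (SE 0.088), both without overlap. Of the other Cd300 genes 3 of 9 were measured, and none passed in limma or had an unadjusted p under 0.05. Cd300c2 stood at -0.20 (SE 0.10) and Cd300lg at -0.15 (SE 0.16), and without the outlying pair they were at -0.067 and 0.077. Single arrays moved Cd300lg between -0.31 without hBD-2 2 and -0.025 without hBD-2 3, with -0.088 without PBS 3. Of the other C-type lectins 10 of 11 were measured, none passed in limma and 1 was lower at an unadjusted p under 0.05. Clec4a3 stood at -0.63 (SE 0.21), and at -0.21 without the outlying pair, and Clec4a2 at -0.16 (SE 0.072), both without overlap, and the list median was -0.10 (-0.039 without the outlying pair and -0.059 without hBD-2 3 alone).

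Ligands and binding partners were the last of these lists. Of 10 measured partners of Sirp proteins and Cd47, none passed in limma and 3 were lower at an unadjusted p under 0.05, with a median of -0.14, or -0.072 without hBD-2 1. The integrin subunit Itgav stood at -0.20 (SE 0.068) without overlap and the leukocyte adaptor Fyb at -0.31 (SE 0.11). Of 5 proposed ligands of Lilrb4 proteins, which share Itgav and Itgb3 with that list, none passed in limma and 1 was lower at an unadjusted p under 0.05, with a median of -0.20, or -0.043 without the outlying pair and -0.076 without hBD-2 3 alone. Alcam (CD166) stood on the other side, at 0.24 (SE 0.12), and at 0.062 without the outlying pair and 0.15 without hBD-2 1 alone.

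**Figure D4:**
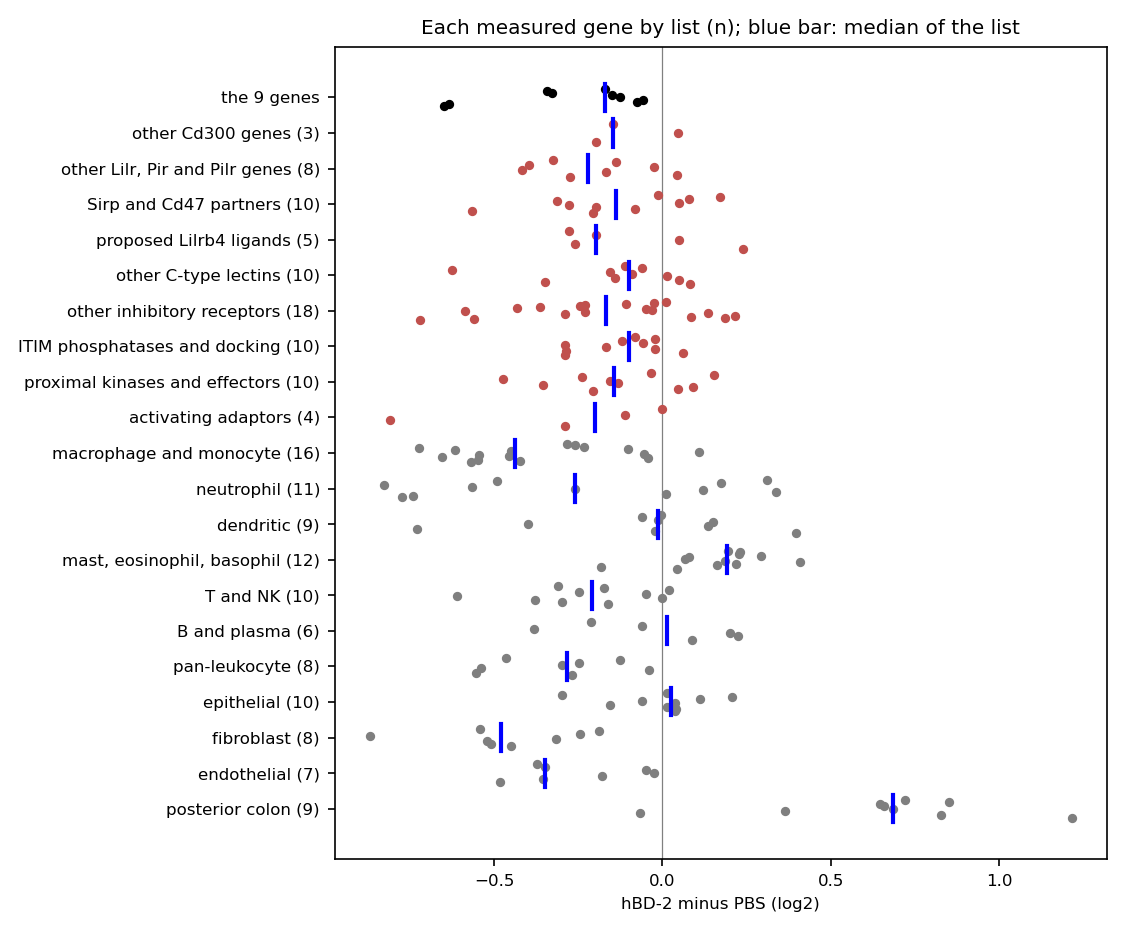
Difference hBD-2 minus PBS on the log2 scale of each measured gene. Shown are the 9 genes (black), 9 lists of relatives and partners (red) and 11 lists of cell type and position markers (grey). The number measured is in brackets, and the blue bar is the median of each list. The medians run from -0.48 for fibroblast markers to 0.68 for posterior colon genes, with the 9 genes at -0.17; without the outlying pair these 3 medians were -0.30, -0.085 and -0.16.

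None of the 106 cell type and position marker genes measured passed in limma. Beside the macrophage and pan-leukocyte lists, the 11 neutrophil markers had a median of -0.26, with 3 lower and 2 higher at an unadjusted p under 0.05. S100a9 was at -0.74 (SE 0.21), with overlapping groups. Of the 11, 6 had a lower mean in hBD-2 mice. Without overlap 0 were lower and 1 higher, beside 3.60% and 2.80% of all genes. The neutrophil median was -0.025 without the outlying pair, -0.043 without hBD-2 3 alone, -0.16 without PBS 4 and -0.45 without hBD-2 2. The 9 dendritic cell markers had a median of -0.013, with 2 lower and 1 higher and the integrin Itgax at -0.73 (SE 0.13). The 1 higher was Flt3, at 0.40 (SE 0.12). Its groups overlapped and its probe set was dim, averaging 4.36 in hBD-2 and 3.97 in PBS mice. The dendritic median was 0.10 without the outlying pair and ran from -0.11 to 0.064 with 1 array left out at a time. Mast cell, eosinophil and basophil markers ran the other way, with 11 of 12 higher in hBD-2 mice and a median of 0.19. Of these, 4 were higher at an unadjusted p under 0.05, with the chymase Cma1 at 0.41 (SE 0.082). Most of these probe sets were dim, and Cma1 averaged 4.37 in hBD-2 and 3.96 in PBS mice. Kit was the only marker of this list above the array medians, and it was lower in hBD-2 mice, at -0.18 (SE 0.097). Whether the dim probe sets measured more than background was not tested. The 10 T and NK cell markers had a median of -0.21, or -0.40 without the outlying pair, with 2 lower and Cd4 at -0.61 (SE 0.11). The 6 B and plasma cell markers had a median of 0.013, or 0.049 without that pair and -0.037 to 0.055 with 1 array left out at a time, with 1 higher, Cd79b at 0.22 (SE 0.073).

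Outside the leukocytes, 8 fibroblast markers had a median of -0.48 with 6 lower at an unadjusted p under 0.05 (Vim at -0.54, SE 0.095), and 7 endothelial markers -0.35 with 4 lower (Cdh5 at -0.48, SE 0.12). Without the outlying pair these medians were -0.30 and -0.17. The 10 epithelial markers had a median of 0.026, and 0.013 to 0.035 with 1 array left out at a time, with 1 higher (the intestinal transcription factor Cdx1 at 0.21, SE 0.081). The 9 posterior colon genes had a median of 0.68 with 1 higher (Hoxd12 at 0.36, SE 0.086), and the median turned to -0.085 without the outlying pair, with 6 of the 9 then below 0. With 1 array left out at a time it ran from 0.41 without hBD-2 1 to 1.07 without hBD-2 2. The part of these lists in the differences of the 9 genes was not tested.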

How the data were processed

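Total RNA from whole colon of 8 mice was hybridised to Affymetrix arrays after amplification with a kit for small inputs, 1 array per mouse, and groups and replicate numbers came from the sample titles. The deposited values are log2 expression per probe set, and per the submitters' processing notes the authors used oligo and RMA, with no versions. RMA makes array distributions alike, so an overall shift would not be seen. The platform annotation named 1 gene for 19572 of 22203 probe sets and none for 2631. The probe set with the highest mean represented a gene, which left 19505 genes. Differences were tested with lmFit and eBayes of limma 3.58.1 (R 4.3.3), two-sided, with Benjamini-Hochberg adjustment over all genes and a threshold of 0.05. The number of arrays limits the precision. No array pair was identical. Each p-value sets the group difference against the spread between mice within groups. The labels do not say how mice were housed or processed, so whether housing or processing went with treatment is not known.

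The 9 genes, the 20 lists (208 entries, 184 measured) and the pair of arrays left out were chosen with earlier results of these data known. Named were the 9 genes, list genes past the threshold, the lowest p in each list (2 genes for partners, 1 for markers), Ptprc, Csf1r, Adgre1 and Epcam. The nearest profiles outside the 9 were also named, with gene models left out of that ranking. Kit, Hoxb13 and Hoxd10 were added for their levels and Flt3 for its direction, and other genes are named only as members of a count. No protein table was used, so protein motifs were not searched. The fit was tested on simulated arrays. Alternatives were an intensity trend with robust prior, filters on low probe sets, median centring, repeated quantile normalization, averaged probe sets, array weights, a replicate block, single arrays and the pair left out, and a posterior colon covariate. List medians with arrays left out were added after seeing the data. Figures were drawn with matplotlib 3.10.9.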

Additional observations from a re-analysis of the deposited data

Results flagged for a closer look

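Dixon's test for a mouse far from the other 3 of its group was run on 82 groups, from the 9 genes and 32 named partners and markers, and marked 6. Chance marks about 1 group in 20, or 4.1 of 82.

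Of the 9 genes, Sirpa was marked, in hBD-2 3, which stood at 8.96 where the other hBD-2 mice lay between 9.29 and 9.34. The same array was one of the pair that stood apart from the rest, and hBD-2 1, the other array of that pair, was at 9.34. Among partners, the C-type lectin Clec4a2 was marked in PBS 1, at 4.57 beside 4.63 to 4.65 in the other PBS mice, and its neighbour in the family Clec4a3 in PBS 2, at 6.63 beside 6.22 to 6.27. Among markers, the mannose receptor Mrc1 was marked in hBD-2 2, at 9.67 beside 9.27 to 9.33, the mast cell chymase Cma1 in PBS 2, at 3.92 beside 3.97 to 3.98, and the transcription factor Cdx1 in hBD-2 3, at 9.96 beside 9.73 to 9.75.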

How the results depend on the processing

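The differences of the 9 genes were computed under 18 alternatives, 159 values in all, and 5 had the opposite sign, all in Cd300a and Cd300lb. The difference of Lilrb4a stayed between -0.70 and -0.60 and that of Lilr4b between -0.67 and -0.59, and the call of Lilr4b was kept under 7 of 18. Of 561 values for 32 named partners and markers, 2 had the opposite sign, both in Cd300lg. The posterior colon covariate put Cd300a at 0.11, Cd300lf at -0.091, Fcgr2b at -0.47, Cd300c2 at -0.096, Cd300lg at 0.022, Clec4a3 at -0.22, Tyrobp at -0.17, Adgre1 at -0.23, Ptprc at -0.48 and Alcam at 0.060. Cd300a was at -0.14 and Cd300lb at -0.10 with array weights, and Cd300lb at -0.10 with repeated quantile normalization. Counts of calls moved more. Over all genes there were 8 calls, 91 with an intensity trend and robust prior, 68 with array weights, 16 and 46 without the lowest 25% and 50% of probe sets, 4 with quantile normalization repeated, 81 at a threshold of 0.1, and 0 without hBD-2 1 and hBD-2 3. Of the 9 genes 1 was called, 2 (Lilrb4a and Lilr4b) under the trend, the array weights, both filters and the threshold of 0.1, and 0 with repeated quantile normalization, the posterior colon covariate or without that pair of arrays. Of partners and markers 1 was called, 11 under the trend, 8 with array weights, 2 and 9 under the filters, and 0 with repeated quantile normalization, the covariate or without the pair. Leaving out 1 array at a time gave 0 to 11 genes, 0 to 1 of the 9, and 0 to 2 partners and markers. With the replicate number as a block 0 genes, 0 of the 9 and 0 partners and markers were called. Deviations of same-numbered arrays correlated at -0.15, 0.14, 0.24 and 0.045, which cannot settle whether the numbers pair the mice. The causes were not tested. Cd300lb, Cd300ld and Clec12a gave no value without the lowest 50% of probe sets. Signal over background cannot be read from RMA values, so a difference in a dim probe set may be understated.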
